A study of Mus musculus with 6 samples.

Results

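The desmosome genes examined here are 10 genes selected by symbol from the 55573 rows of the deposited gene table: the desmosomal cadherins Dsg2 and Dsc2, the armadillo plaque genes Jup, Pkp1, Pkp2, Pkp3 and Pkp4, and the plakins Dsp, Ppl and Evpl. RNA was sequenced from 6 libraries of the mouse hepatoma line Hepa1-6, grown in serum-containing DMEM. A CRISPR/Cas9 knockout of Matr3, the gene of the nuclear matrix RNA-binding protein matrin 3, makes up 3 of the libraries, and the other 3 are wild type. The labels do not say whether the knockout was 1 clone or several, or whether separate cultures stand behind its libraries, so the spread reported is that between libraries and may be technical. The list was proposed with the values of all 6 libraries in view. The differences of its own members between knockout and wild type are therefore given as a description. Their calls in the fit over all genes are listed below, but nothing is read from them.

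Desmosomes are spot-like junctions that join the intermediate filaments of neighbouring cells. Desmogleins and desmocollins are the cadherins that bind across the gap, plakoglobin (Jup) and the plakophilins (Pkp genes) bind their cytoplasmic tails, and desmoplakin (Dsp) ties this plaque to keratin filaments. Dsg2 and Dsc2 are the isoforms typical of simple epithelia such as those of the liver, where the filaments are keratins 8 and 18.

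Library totals ran from 20736570 to 30794032 counts. In CPM (counts scaled to the library by TMM), Matr3 measured 76.0, 86.1 and 75.3 for the knockout libraries against 129, 125 and 134 for the wild type, so its transcript was lower but not absent. Knockout library 2 stood apart from knockout libraries 1 and 3 (chi-square of 54.8 and 65.7 per gene, against 3.41 between those), and wild-type library 1 from the others of its group (23.0 and 27.4, against 6.19). The correlation of gene GC content with the deviation from the mean over the 6 libraries (log2 CPM) was -0.271 for knockout library 2. It was 0.263 and 0.259 for knockout libraries 1 and 3, and -0.030, -0.028 and -0.160 for wild-type libraries 1 to 3. Wild-type library 1 had the lowest total but counts for the most genes, 23440, against 20450 to 21217 in the others. Markers of the labelled cell type were nearly absent in both groups: of 10 hepatocyte markers 3 (Ttr, Serpina1a and Fgb) had 0 counts in all libraries, Alb and Hnf4a had 1 count each over all libraries, and the summed level was 3.38 to 5.35 CPM with the knockout and 5.32 to 6.44 CPM without it. Most of that sum was Afp, at 2.79 and 4.81 CPM (knockout first), with no overlap but not called (edgeR adjusted p = 0.0505). Apoa2, at 1.23 and 1.01 CPM, overlapped between the groups. The summed levels of 7 fibroblast markers were 532 to 644 and 588 to 690 CPM, most of it Col3a1, with Thy1 at 0, Col1a1 higher (log2 fold change 0.81, edgeR adjusted p = 0.0198) and Pdgfrb lower in the knockout (-1.39, edgeR adjusted p = 0.0153). Those of 7 cholangiocyte markers, most of it Krt19 and Spp1, were 948 to 997 and 765 to 875 CPM, Krt19 being higher and Spp1 lower in the knockout. Of 7 keratinocyte markers Krt5 and Krtdap were at 0 (summed 3.79 to 4.66 and 2.74 to 5.27 CPM), of 7 immune markers Adgre1, Cd3e and Lyz2 (12.4 to 16.04 and 10.8 to 11.9 CPM), and none of 5 endothelial markers (1.16 to 1.89 and 3.31 to 3.93 CPM). Most of the keratinocyte sum was Krt10, at 4.01 and 3.42 CPM with overlap. Most of the immune sum was Cd68, at 13.97 and 11.02 CPM (knockout first), with no overlap but not called (edgeR adjusted p = 0.124). Of the endothelial markers Cdh5 was lower in the knockout (-2.27, edgeR adjusted p = 0.00413). The part of these levels in the results was not tested. In bulk RNA, fewer cells of a type and less RNA per cell cannot be told apart.

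The cells carried plaque transcripts with almost no desmosomal cadherin transcripts. By FPKM, which is scaled to gene length and so allows levels of different genes to be compared, the wild-type order was Jup (22.9 ± 1.97), Pkp4 (17.9 ± 1.96), Pkp2 (7.84 ± 0.587), Ppl (5.11 ± 0.295), Pkp3 (1.78 ± 0.200), Dsp (1.68 ± 0.159), Evpl (0.106 ± 0.0711) and Dsc2 (0.0335 ± 0.0110; SD, n = 3 each), with Dsg2 and Pkp1 at 0. Each neighbouring pair in that order was separated in every library except Pkp3 and Dsp, whose ranges overlapped, and Dsg2 and Pkp1. In the knockout the order was the same except that Dsp (5.59 ± 0.205) stood above Pkp3 (2.79 ± 0.0887), with no overlap, and that Dsc2, Pkp1 and Dsg2 were no longer separated. Over all 6 libraries the level of Jup was higher than that of 83.5% of the 14842 genes tested, while Dsp stood at 39.9%.

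**Figure D1:**
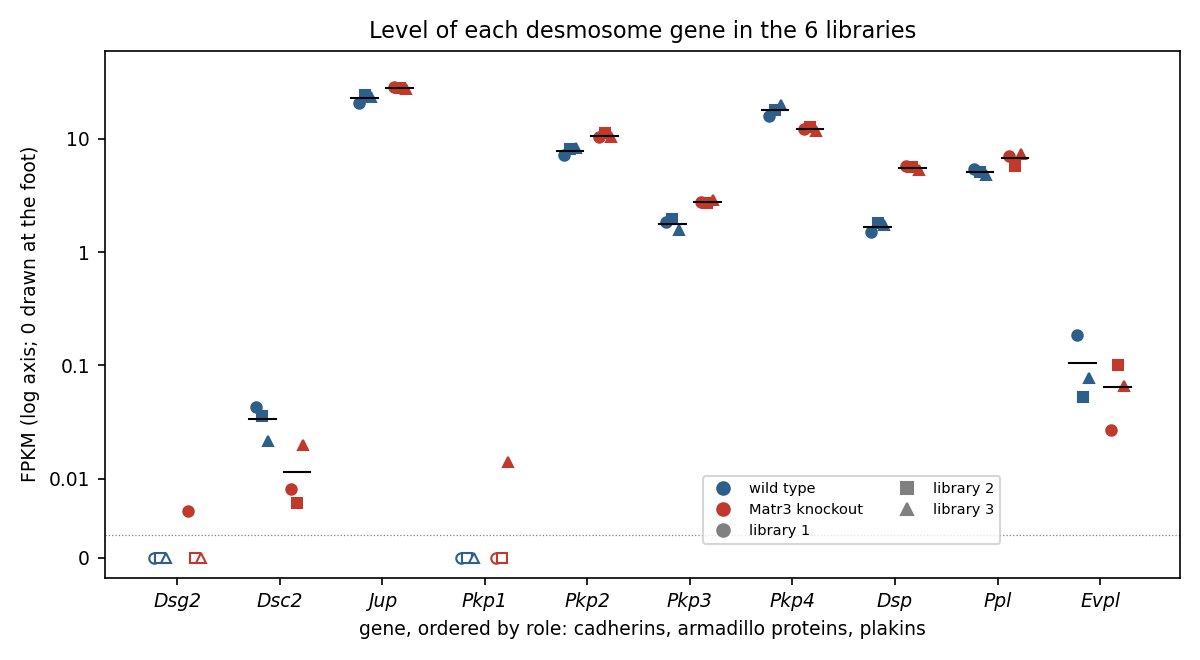
FPKM (log axis, 0 drawn at the foot as open symbols) of the 10 desmosome genes in each wild-type (blue) and knockout (red) library; symbols mark library numbers and black lines the group means, not drawn where a library is at 0. Jup, Pkp2, Pkp3, Pkp4, Dsp and Ppl lie above 1 FPKM in every library, while Dsg2, Dsc2, Pkp1 and Evpl lie below 0.2 FPKM.

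Promoter sequence was held for 3 of the 10 members, Dsp, Jup and Pkp4, which are the member that differed most and the members with the highest levels. The windows, from RefSeq on GRCm38.p6, run from 250 bases before to 50 bases after an annotated start and are printed 5′ to 3′ on the gene's strand: Dsp at chr13:38151044-38151343 (plus), Jup at chr11:100397741-100398040 (minus) and the starts of Pkp4 at chr2:59160600-59160899 and chr2:59161619-59161918 (plus). Capitals mark the GC box GGGCGG, the E-box CAGGTG and the CCAAT box, each on either strand; at the first Pkp4 start a GC box overlaps a CCAAT box and 3 GC boxes overlap each other.
Dsp: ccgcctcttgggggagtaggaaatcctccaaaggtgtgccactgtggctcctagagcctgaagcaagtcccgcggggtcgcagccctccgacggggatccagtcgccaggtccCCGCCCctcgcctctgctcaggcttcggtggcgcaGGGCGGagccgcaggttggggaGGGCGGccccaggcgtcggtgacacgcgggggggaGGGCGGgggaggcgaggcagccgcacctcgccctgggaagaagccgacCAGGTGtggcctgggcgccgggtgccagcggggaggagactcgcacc
Jup: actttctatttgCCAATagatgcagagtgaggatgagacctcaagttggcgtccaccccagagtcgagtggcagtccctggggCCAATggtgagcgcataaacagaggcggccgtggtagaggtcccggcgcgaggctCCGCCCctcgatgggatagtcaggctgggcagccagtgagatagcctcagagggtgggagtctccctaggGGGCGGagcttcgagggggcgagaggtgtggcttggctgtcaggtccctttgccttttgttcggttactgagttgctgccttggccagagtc
Pkp4 start 1: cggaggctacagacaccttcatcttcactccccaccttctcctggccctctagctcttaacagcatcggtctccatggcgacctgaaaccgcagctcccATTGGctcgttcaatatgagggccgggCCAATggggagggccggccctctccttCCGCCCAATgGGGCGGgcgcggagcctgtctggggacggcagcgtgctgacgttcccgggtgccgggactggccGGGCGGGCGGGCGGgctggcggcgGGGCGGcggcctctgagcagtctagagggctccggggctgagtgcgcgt
Pkp4 start 2: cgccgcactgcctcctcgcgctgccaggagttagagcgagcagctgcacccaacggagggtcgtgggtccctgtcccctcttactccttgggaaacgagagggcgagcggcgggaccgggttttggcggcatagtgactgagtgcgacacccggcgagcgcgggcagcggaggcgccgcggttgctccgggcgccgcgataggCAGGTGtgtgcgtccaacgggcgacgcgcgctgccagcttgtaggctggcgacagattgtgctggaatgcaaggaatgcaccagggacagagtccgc
The GC box, a motif bound by SP and KLF factors, was found 4 times for Dsp, 2 times for Jup and 6 times at the first start of Pkp4, and is held by 35.7% of all 32851 promoter windows. CAGGTG, which Snail and ZEB repressors can bind, was found 1 time for Dsp and 1 time at the second start of Pkp4, against 20.2% of all windows. CCAAT was found 2 times for Jup and 3 times at the first Pkp4 start (37.4% of all windows). None of these windows held CTTTGA (TCF and LEF factors), AACCNGGTT (grainyhead-like factors, 0.271% of all windows), the interferon-stimulated response element (3.44%) or TATAAA (13.6%). Their GC content was 73.0% for Dsp, 60.7% for Jup and 69.3% and 68.0% for Pkp4, against a median of 52.7% over all windows. A match is only the letters, and no binding was measured.

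Both desmosomal cadherins of the list were at or near 0. Dsg2 (ENSMUSG00000044393; chromosome 18, 20691131 to 20737578, plus strand, positions here and below as the deposited table gives them) had 1 count in knockout library 1 and 0 in the other 5 libraries. Dsc2 (ENSMUSG00000024331; chromosome 18, 20163690 to 20192611, minus strand) had 1, 1 and 3 counts in the knockout and 5, 5 and 3 in the wild type. The ratio of its normalised group counts was 0.345, with an exact 95% counting interval of 0.0963 to 1.03 that covers counting error only. A count of 0 over a group allows up to 3 counts, 0.0361 CPM for the knockout and 0.0403 CPM for the wild type. The other desmogleins and desmocollins were also at or near 0: Dsg1a, Dsg1b and Dsg4 had 0 counts, Dsg1c had 8 knockout and 2 wild-type counts, Dsc1 2 and 11, Dsg3 2 and 0, and Dsc3 1 and 0. All 9 desmosomal cadherin genes together had 19 counts in the knockout and 26 in the wild type. Among classical cadherins, N-cadherin (Cdh2) had levels of 80.5 ± 7.44 and 71.6 ± 10.6 CPM (SD, n = 3 each, knockout first) and E-cadherin (Cdh1) had 15 and 5 counts (ratio 2.69, 95% counting interval 0.930 to 9.46). The groups overlapped for both.

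Plakoglobin was the highest member and differed little between the groups. Jup (ENSMUSG00000001552; chromosome 11, 100259784 to 100288589, minus strand), whose product binds both desmosomal and classical cadherins, was at 28.7, 28.3 and 27.6 FPKM in knockout libraries 1 to 3 and at 20.7, 24.4 and 23.6 FPKM in the wild-type libraries. All knockout values lay above all wild-type values, with a log2 fold change of 0.29 (SE 0.0891).

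The plakophilins, which cluster desmosomal cadherins and recruit desmoplakin, differed in both directions. Pkp2 (ENSMUSG00000041957; chromosome 16, 16031182 to 16090576, plus strand), the plakophilin of simple epithelia and heart, was at 10.5, 11.2 and 10.4 FPKM in the knockout and 7.17, 8.10 and 8.25 FPKM in the wild type. The groups did not overlap, and the log2 fold change was 0.44 (SE 0.0876). Pkp3 (ENSMUSG00000054065; chromosome 7, 140658131 to 140670423, plus strand) had lower levels than Pkp2 in every library, at 2.77, 2.72 and 2.89 FPKM against 1.83, 1.94 and 1.56 FPKM, a log2 fold change of 0.64 (SE 0.140) with no overlap. Pkp4 (ENSMUSG00000026991; chromosome 2, 58991194 to 59185552, plus strand), a p120-catenin relative found at adherens junctions as well as desmosomes, went the other way. It was at 12.1, 12.7 and 11.9 FPKM in the knockout and 15.9, 17.9 and 19.8 FPKM in the wild type, a log2 fold change of -0.56 (SE 0.0967), and every knockout library lay below every wild-type library. Pkp1 (ENSMUSG00000026413; chromosome 1, 135799133 to 135846945, minus strand), the plakophilin of stratified epithelia, had 2 counts in knockout library 3 and 0 in the other 5 libraries, too few for a fold change. The level of Pkp2 per level of Pkp4 was 0.863, 0.883 and 0.875 in the knockout and 0.450, 0.454 and 0.416 in the wild type.

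Among the plakins, large proteins that link junctions to intermediate filaments, Dsp differed most. Dsp (ENSMUSG00000054889; chromosome 13, 38335270 to 38382553, plus strand) had 1293, 1708 and 1470 counts with the knockout against 318, 469 and 437 without it, or 5.74, 5.68 and 5.36 FPKM against 1.51, 1.82 and 1.72 FPKM. The lowest knockout library was 2.95 times the highest wild-type library by CPM, and the fold was 3.30 (log2 fold change 1.72, SE 0.09996). The spread within groups was small, with a coefficient of variation of 3.78% in the knockout and 8.45% in the wild type. Of all 14842 genes tested, 1.99% had a larger log2 fold change in either direction. Periplakin (Ppl, ENSMUSG00000039457; chromosome 16, 4904155 to 4950285, minus strand) was at 7.13, 5.79 and 7.33 FPKM in the knockout and 5.43, 5.06 and 4.85 FPKM in the wild type (log2 fold change 0.39, SE 0.116). The gap between its groups was narrow, because knockout library 2 lay just above the highest wild-type library. Envoplakin (Evpl, ENSMUSG00000034282; chromosome 11, 116111385 to 116128903, minus strand), its partner in the cornified envelope of the skin, had 4, 20 and 12 counts against 26, 9 and 13, overlapping groups with a ratio of 0.673 (95% counting interval 0.424 to 1.06). That interval leaves out the spread between libraries, which was wide (log2 fold change -0.66, SE 0.622).

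**Figure D2:**
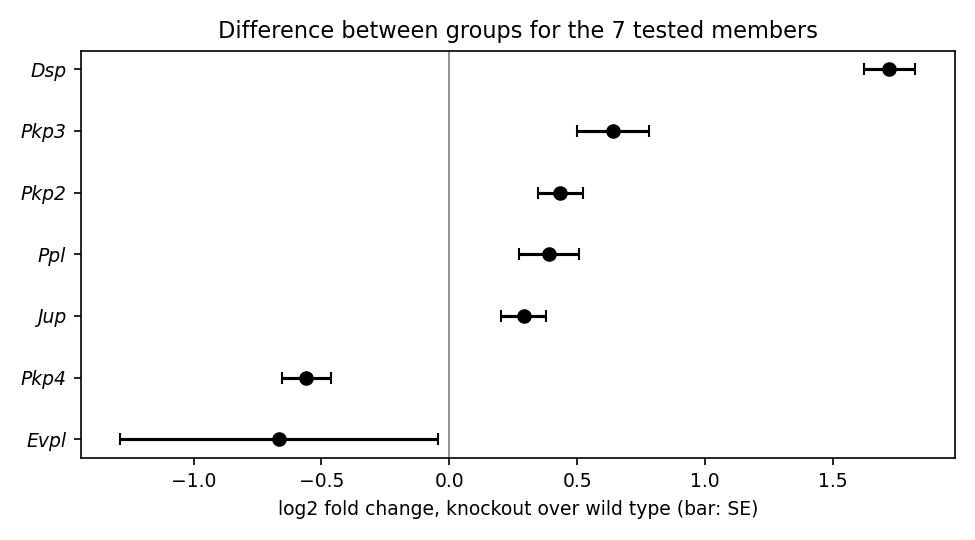
Log2 fold change, knockout over wild type, of the 7 members that passed the expression filter, with bars of 1 SE. Dsp stands at 1.72, Pkp3, Pkp2, Ppl and Jup lie between 0.29 and 0.64, Pkp4 is at -0.56, and the bar of Evpl is the widest (SE 0.622).

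Of the 10 members, 7 passed the filter on low counts, and Dsg2, Dsc2 and Pkp1 did not. In the fit over the whole table (edgeR, adjusted p under 0.05), Dsp, Pkp2 and Pkp3 were called higher and Pkp4 lower, while Jup, Ppl and Evpl were not called, beside calls for 15.2% of all genes tested (7.69% higher and 7.48% lower). In 6 of the 7 the groups did not overlap, as in 36.6% of all genes tested. Nothing is read from these calls and counts, or from any below, because the contrast was in view when the list was made. Calls also moved with single libraries: 1 member was called without knockout library 1 or knockout library 3 (Dsp), 2 without wild-type library 2 or wild-type library 3 (Dsp and Pkp4), and 6 without knockout library 2 (all tested but Evpl). Calls over all genes moved with them, to 861, 832, 931, 807 and 4295 in that order, from 2252. Over the alternative fits, Dsp was called in 17 of 17, Pkp4 in 15, Pkp2 in 13, Pkp3 in 12, Ppl in 7 and Jup in 4. Evpl was called in 0 of 16. With knockout library 2 and wild-type library 1 both left out, the log2 fold changes were 1.65 for Dsp, 0.70 for Pkp3, 0.55 for Ppl, 0.35 for Pkp2, 0.23 for Jup, -0.43 for Evpl and -0.65 for Pkp4. In the authors' deposited table the log2 fold change is 1.62 for Dsp, 0.57 for Pkp3, 0.42 for Pkp2, 0.37 for Ppl, 0.29 for Jup, -0.22 for Evpl and -0.52 for Pkp4.

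Relative to plakoglobin, the composition of the plaque transcripts differed mainly in Dsp and Pkp4. Dsp per Jup, a ratio of FPKM, was 0.200, 0.201 and 0.194 in the knockout and 0.0729, 0.0743 and 0.0730 in the wild type. The wild-type ratios were nearly equal, although the level of each gene was lowest in wild-type library 1. Pkp4 per Jup was 0.433 ± 0.0139 in the knockout and 0.781 ± 0.0562 in the wild type (SD, n = 3 each), with no overlap. Pkp2 per Jup (0.379 ± 0.0161 and 0.343 ± 0.00988) and Pkp3 per Jup (0.0991 ± 0.00474 and 0.0781 ± 0.0114) differed less, again without overlap. Ppl per Jup overlapped between the groups, at 0.249, 0.205 and 0.265 against 0.263, 0.207 and 0.205. As a share of the summed FPKM of the 10 genes, Dsp made up 8.17% to 8.57% in the knockout libraries and 2.85% to 3.06% in the wild type, and Pkp4 18.1% to 19.1% and 30.1% to 33.1%. The sum itself was 66.9, 66.5 and 65.5 FPKM in the knockout and 52.8, 59.3 and 59.9 FPKM in the wild type.

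**Figure D3:**
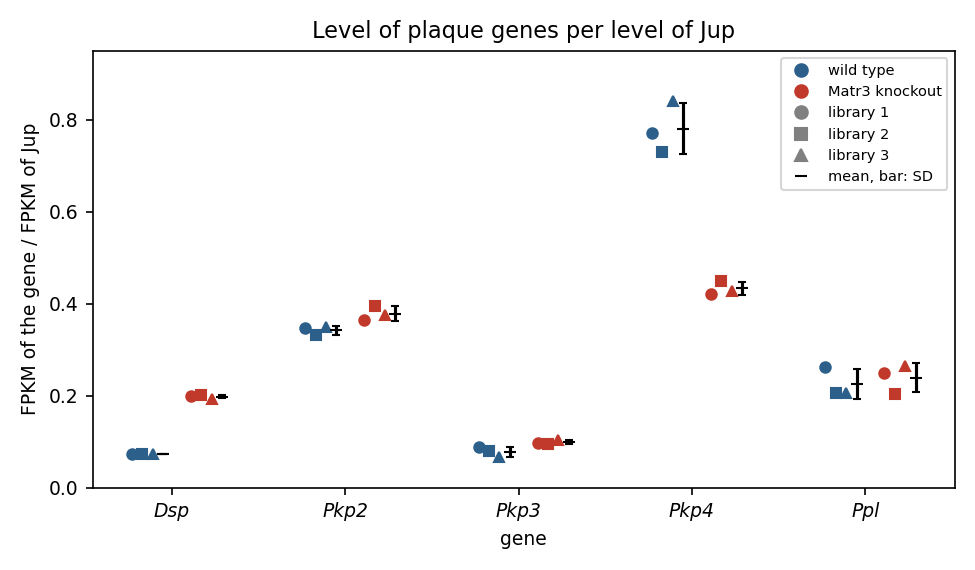
FPKM of each plaque gene divided by the FPKM of Jup in the same library, for wild type (blue) and knockout (red), with the group mean and SD beside the points. Dsp per Jup is near 0.073 in every wild-type library and near 0.2 in every knockout library, Pkp4 per Jup is lower in the knockout, and the groups overlap for Ppl.

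Genes of the same and neighbouring junctions were taken from 8 lists of 107 genes that hold no member, of which 66 were tested. Of these, 17 rose and 7 fell (edgeR quasi-likelihood test, adjusted p under 0.05), beside 15.2% of all genes tested, with a median log2 fold change of 0.11 against -0.02 over all genes tested. The lists were chosen with earlier results of these data known. Nothing is therefore read from this count, or from those per list below, against that share. The count of 24 fell to 12 without knockout library 1 or knockout library 3 and to 13 without wild-type library 2 or wild-type library 3. The share called over all genes in those fits fell too, to 5.62%, 5.43%, 6.07% and 5.28% in that order.

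Desmoplakin anchors keratin filaments. Krt8, Krt18 and Krt19 rose, Krt20 fell, and Krt10, which stood in the keratinocyte markers and not in this list, was not called (log2 fold change 0.24). Of 7 tested plakins and keratins outside the desmosome list 3 rose, 1 fell and 3 were not called (median log2 fold change 0.12). Krt8, at 756, 758 and 763 CPM against 362, 446 and 430 CPM, rose by a log2 fold change of 0.88 (SE 0.102, edgeR adjusted p = 0.002003), and every knockout library lay above every wild-type library. Its pairing partner Krt18 rose by 0.39 (edgeR adjusted p = 0.0338). Krt19, a keratin of bile duct and progenitor cells, rose from 282 ± 13.4 to 639 ± 21.2 CPM (SD, n = 3 each; log2 fold change 1.18, SE 0.0866, edgeR adjusted p = 0.000254). Krt20, at 1.20 ± 0.576 CPM in the wild type, fell to 0.377 ± 0.0913 CPM (-1.65, edgeR adjusted p = 0.0492). The calls of Krt18 and Krt20 ended without any 1 library other than knockout library 2 (edgeR adjusted p from 0.0550 to 0.178). Both calls also ended with the replicate number as a block and with limma on log2(FPKM + 1). That of Krt20 ended as well with library totals alone, with DESeq2 and with limma voom. The remaining plakins Plec (0.12), Dst (-0.07) and Macf1 (-0.19) were not called, with standard errors of 0.109, 0.0970 and 0.0872. Epiplakin (Eppk1), which also binds keratins, was too low to test, with 24 counts against 3 (ratio 7.17, 95% counting interval 2.18 to 37.2).

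Of the desmosome-associated genes outside the cadherins, corneodesmosin (Cdsn) was the 1 gene of its list of 9 that could be tested. It rose from 17.2 ± 1.64 to 25.0 ± 1.86 CPM (SD, n = 3 each; log2 fold change 0.54, edgeR adjusted p = 0.0183). Its call ended when any of knockout libraries 1 and 3 or wild-type libraries 2 and 3 was left out (edgeR adjusted p from 0.0523 to 0.0816). Perp, a membrane protein of desmosomes, had 13 counts in the knockout and 27 in the wild type and was not tested.

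In the adherens junction and p120 family 0 of 11 tested genes rose and 1 fell (edgeR quasi-likelihood test; median log2 fold change 0.17). 2 were higher at an unadjusted p under 0.05, and DESeq2 and limma voom called 0 and 0 higher. Nectin2, an immunoglobulin-type adhesion receptor, fell from 35.4 ± 3.22 to 23.4 ± 4.10 CPM (SD, n = 3 each; -0.60, edgeR adjusted p = 0.0287), a call that ended without any 1 library other than knockout library 2 (edgeR adjusted p from 0.0525 to 0.1103). Ctnnb1, the beta-catenin gene and closest relative of Jup, had 576 and 580 CPM, knockout first (log2 fold change -0.01, SE 0.124). The p120-catenin gene Ctnnd1, a relative of Pkp4, stood at 0.13 (SE 0.135) and Cdh2 at 0.17 (SE 0.127).

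Among 12 tested tight junction genes 4 rose and 2 fell (edgeR quasi-likelihood test; median 0.09). Ocln, which encodes occludin, rose from 11.05 ± 0.682 to 20.9 ± 0.322 CPM (log2 fold change 0.92, edgeR adjusted p = 0.00186) and F11r, the junctional adhesion molecule A gene, from 32.9 ± 3.05 to 58.1 ± 4.13 CPM (0.82, edgeR adjusted p = 0.00262; SD, n = 3 each). Cgnl1, which encodes paracingulin, fell from 42.4 ± 1.26 to 26.2 ± 2.70 CPM (-0.70, edgeR adjusted p = 0.00449). The claudin gene Cldn23 rose (edgeR adjusted p = 0.00793) on few reads, 44 counts against 2, a ratio of 19.7 with a 95% counting interval of 5.15 to 168. Of 5 tested gap junction genes Gjc1, a connexin gene, rose from 1.33 ± 0.431 to 5.20 ± 0.578 CPM (1.96, edgeR adjusted p = 0.00324) and 4 were not called.

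Hemidesmosomes attach keratins to the basement membrane rather than to another cell. Of 4 tested genes 2 rose and 0 fell, the tetraspanin gene Cd151 among those that rose (log2 fold change 0.36, edgeR adjusted p = 0.0471). 1 of the 4 was lower at an unadjusted p under 0.05, and DESeq2 and limma voom called 0 and 0 lower. The call of Cd151 ended without any 1 library other than knockout library 2 (edgeR adjusted p from 0.0611 to 0.1596) and with the GC trend of each library removed. It also ended with the replicate number as a block and with limma on log2(FPKM + 1). Of 15 tested regulators of desmosome turnover 2 rose and 2 fell (median 0.06). Flot1, a membrane raft protein gene, rose by 0.58 (edgeR adjusted p = 0.00697) and the growth factor receptor gene Egfr by 0.45 (edgeR adjusted p = 0.0323), while the gelatinase gene Mmp9 fell by 0.77 on the log2 scale (edgeR adjusted p = 0.0195) and the palmitoyltransferase gene Zdhhc5 by 0.34 (edgeR adjusted p = 0.0416). The calls of Egfr, Mmp9 and Zdhhc5 ended without knockout library 1, knockout library 3 or wild-type library 2, those of Egfr and Zdhhc5 also without wild-type library 3, and that of Egfr without wild-type library 1 (edgeR adjusted p from 0.0564 to 0.197). Those of Egfr and Zdhhc5 also ended with the replicate number as a block and with limma on log2(FPKM + 1). That of Zdhhc5 ended as well without the filter on low counts.

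Transcription and splicing factors of epithelial and mesenchymal states moved both ways. Of 11 tested 4 rose, 1 fell and 6 were not called (edgeR quasi-likelihood test; median -0.06). Barx2, a homeobox gene, rose from 7.15 ± 0.917 to 24.7 ± 4.59 CPM (log2 fold change 1.79), the epithelial ETS factor gene Elf3 from 22.3 ± 1.42 to 46.4 ± 3.70 CPM (1.06) and Snai2, which encodes the repressor Slug, from 10.96 ± 0.165 to 21.9 ± 1.70 CPM (1.00; SD, n = 3 each). Zeb2, another E-box repressor gene, fell from 52.9 ± 2.01 to 29.6 ± 2.42 CPM (-0.84). The edgeR adjusted p was 0.000956 for Barx2 and Elf3, 0.00147 for Snai2 and 0.00173 for Zeb2. Grhl2, an activator of epithelial junction genes, had 11.4 and 10.3 CPM, knockout first (0.15, SE 0.131), Zeb1 at 61.3 and 64.0 CPM (-0.06, SE 0.119), and the epithelial splicing factor genes Esrp1 and Esrp2 had 0 and 10 counts over all libraries.

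**Figure D4:**
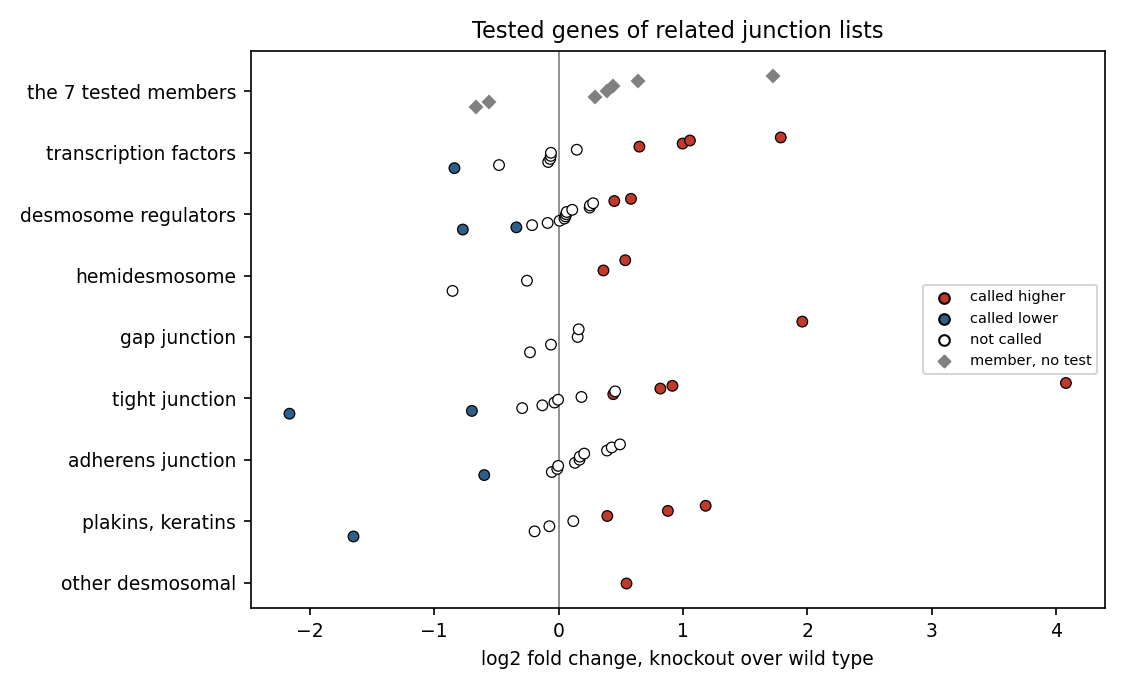
Log2 fold change, knockout over wild type, of the 66 tested genes in 8 lists of related junction genes, with calls higher (red), calls lower (blue) and genes not called (open). The 7 tested members are shown in grey for reference, without their calls. Krt8, Krt19, Ocln, F11r and Barx2 are among the genes called higher, and the point farthest to the right is Cldn23, which rests on 44 counts against 2.

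Genes beside the members on their chromosomes were examined next. Of the 54 distinct genes tested among the 3 nearest on each side of the members, which the list did not use, 5 rose and 3 fell (edgeR quasi-likelihood test), 14.8% against 15.2% of all genes tested. No limit was set on distance. The genes before Dsg2 lay 2729 to 4283 kb away and those before Dsc2 2202 to 3756 kb. Cdh2 was among them and also stood in the adherens junction list. Around Dsp 0 of 6 neighbours were called by edgeR, by DESeq2 or by limma voom, and 0 had an unadjusted p under 0.05, with log2 fold changes from -0.53 to 0.74, and the nearest, Snrnp48, 6.36 kb away, stood at -0.53 (SE 0.255). Beside Pkp2, Yars2 lay 30.3 kb away and fell by 0.56 on the log2 scale (edgeR adjusted p = 0.00804). Beside Pkp3, B4galnt4 fell by 0.54 (edgeR adjusted p = 0.0192) and Ptdss2 rose by 0.43 (edgeR adjusted p = 0.0170). Beside Jup, Eif1 rose by 0.47 (edgeR adjusted p = 0.0224), and beside Evpl, Ten1 and Srp68 rose by 0.48 and 0.35 (edgeR adjusted p = 0.0271 and 0.0321). Cytip, 906 kb from Pkp4, fell by 3.25 (edgeR adjusted p = 0.00439), from 5.24 ± 1.46 to 0.530 ± 0.378 CPM (SD, n = 3 each). The call of Yars2 ended without knockout library 1 (edgeR adjusted p = 0.0504), and those of Eif1, B4galnt4, Ptdss2, Ten1 and Srp68 when any of knockout libraries 1 and 3 or wild-type libraries 2 and 3 was left out (edgeR adjusted p from 0.0543 to 0.136). Those of B4galnt4, Ten1 and Srp68 also ended with the replicate number as a block. Without the filter on low counts, B4galnt4 and Srp68 were not called. Srp68 was also not called with the GC trend removed and the block together. The share of neighbours called was 1.85% without knockout library 1, where 5.62% of all genes in the fit were called. It was 3.70% when either knockout library 3 or 1 of wild-type libraries 2 and 3 was left out, against 5.43%, 6.07% and 5.28% of all genes in those fits. Without knockout library 2 it was 29.6%, against 28.1%. The annotated features that overlap a member, on either strand, had 0 counts in all libraries (Gm16090 at Dsg2, Gm36938 at Pkp1 and Gm10129 at Dsp).

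**Figure D5:**
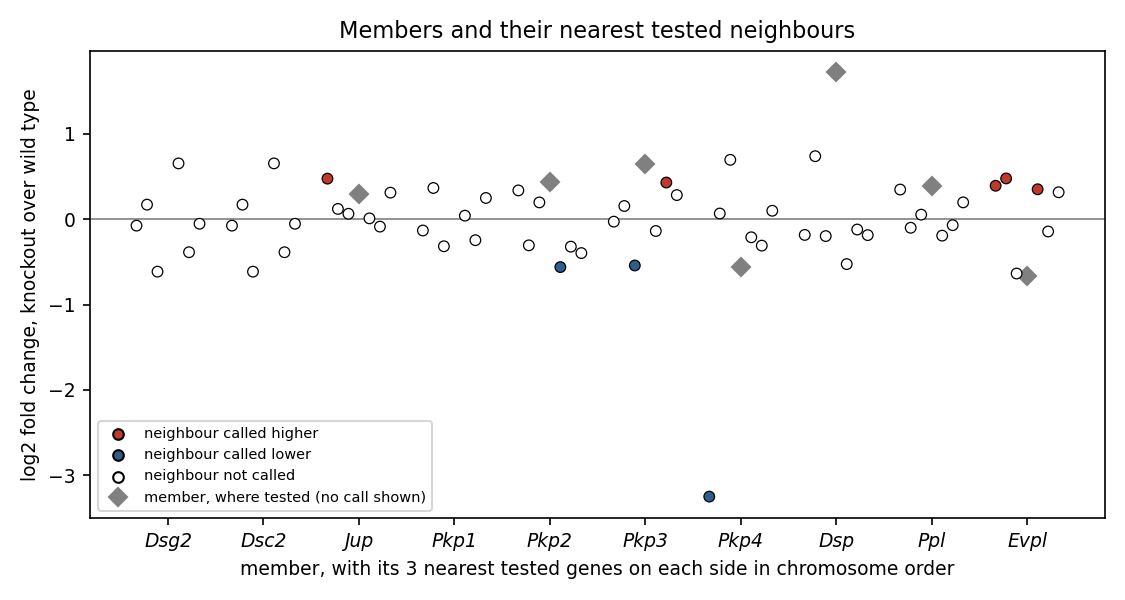
Log2 fold change, knockout over wild type, of each tested member (grey diamond) and of its 3 nearest tested genes on each side in chromosome order, coloured where called. Dsp stands at 1.72 with its neighbours between -0.53 and 0.74, and the lowest point is Cytip beside Pkp4.

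The genes whose pattern over the 6 libraries was closest to that of Dsp were Epha4, Fgf21, Galnt15, Lpar3 and Glt8d2. The measure was the root mean square distance between log2 CPM values (pseudocount 0.5) centred over the 6 libraries, computed for the 10817 genes averaging 5 CPM or more, and it was 0.0893, 0.127, 0.128, 0.138 and 0.176 for these 5 genes. Their group means were 8.07 and 2.27 CPM for the ephrin receptor gene Epha4, 16.5 and 5.45 CPM for Fgf21, a hormone of the fibroblast growth factor family, 14.7 and 3.85 CPM for Galnt15, 9.79 and 2.98 CPM for the lysophosphatidic acid receptor gene Lpar3 and 74.5 and 18.8 CPM for Glt8d2, knockout first. Dsp varied mainly between the groups, so genes picked by this distance differ between them too. These differences follow from that choice, and shared regulation with Dsp was not tested.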

How the data were processed

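Total RNA was sequenced, per the labels, and no source used here names the aligner or the counter. The read counts per gene were deposited by the authors as whole numbers in 1 table with all 6 libraries, with FPKM values that the authors scaled to library size and gene length. The authors' deposited table also holds log2 fold changes and p-values of their own comparison. A signal value per group in it, the authors' mean of scaled counts, was not used. The submitters' processing notes name GRCm38 and mm10, but the coordinates of the table differ from GRCm38 annotation for all 10 members, so they are given as the table has them.

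Counts were fitted over all genes with edgeR 4.0.16 in R 4.3.3 (TMM, filterByExpr, quasi-likelihood test, Benjamini-Hochberg threshold of 0.05, no covariate), and the script was tested on simulated data: it recovered 34.3% of genes changed 1.5-fold, 80.6% at 2-fold and 95.5% at 4-fold among 14608 genes, and 10.8% of its calls were false. In the simulated data 67 genes were changed 1.5-fold, 67 were changed 2-fold and 66 were changed 4-fold, and no library stood apart. The shares recovered and false may therefore not hold for the real libraries. Alternatives used DESeq2 1.42.0, limma 3.58.1, other scalings and filters, a replicate block and left-out libraries. Removal of each library's GC trend was added after seeing the data. Counting intervals are exact at 95% and cover counting error only. The members and lists were chosen with earlier results of these data known. Named genes are, per list, the called genes with up to 4 smallest p-values; called neighbours; and the 5 genes most like Dsp. Other genes were named after their values were seen, as relatives of the members. The values of 2 genes that this rule names are not reported here.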

Additional observations from a re-analysis of the deposited data

How the results depend on the processing

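The number of genes called, 2252, ranged from 807 to 4295 when 1 library was left out and was 7556 with knockout library 2 and wild-type library 1 left out together. The calls among related genes, 24, ranged from 12 to 30 and were 41 without both. The share of neighbours called ranged from 1.85% to 29.6% and was 46.3% without both, where 51.0% of all genes in the fit were called. Without both, the log2 fold change was 0.35 for Pkp2 and 0.55 for Ppl. On the log2(FPKM + 1) scale, limma gave 1.30 for Dsp, 0.45 for Pkp3 and -0.053 for Evpl, since the pseudocount of 1 shrinks low genes. Evpl ranged from -1.13 without knockout library 2 to 0.044 without wild-type library 1. With the replicate number as a block, 1599 genes, 17 related genes and 7.41% of neighbours were called (10.8% of all genes). Libraries with the same number did not deviate together (correlations 0.17, -0.03 and -0.20), so the numbers were not taken as pairing. Removing the GC trend gave 2990 calls. The log2 fold changes of Jup and Pkp4 moved by less than the replicate spread in all 17 alternatives. Low counts limit what can be said of Dsg2, Dsc2, Pkp1 and Evpl. Evpl also varied widely between libraries, with a coefficient of variation of 56.8% in the knockout and 68.5% in the wild type.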
